A study of Mus musculus with 9 samples.

Results

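The Fc receptor genes of mouse dendritic cells (DC) were examined in bulk RNA sequencing of 3 splenic subsets. The genes were the receptors for IgG Fcgr1, Fcgr2b, Fcgr3 and Fcgr4, the common gamma chain Fcer1g, the neonatal Fc receptor Fcgrt, the IgE receptor Fcer2a and the Fc receptor-like gene Fcrla. They were chosen by gene name in the count table and make up 8 of its 39179 genes. The 9 libraries were CD8pos cDC1, CD8neg cDC2 and pDC, with 3 libraries of each. All came from C57BL/6J mice in steady state, aged 6 to 12 weeks per the methods of the study, with no stimulation of the cells sequenced. Each replicate was a pool of spleens from 15 to 17 mice, so differences between single mice are averaged within it. T cells, B cells, Ly6G-bearing cells and erythrocytes had been depleted with antibodies before the sort, and the sort used antibodies to CD11c, CD45RA, CD8, CD11b and CD49b.

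Fc receptors bind the constant part of antibodies and so connect antibody-coated antigen to the cells that take it up. In the mouse, FcγRI, FcγRIII and FcγRIV (encoded by Fcgr1, Fcgr3 and Fcgr4) are activating and signal through the gamma chain, whose immunoreceptor tyrosine-based activation motif (ITAM) recruits the kinase SYK. FcγRIIB (Fcgr2b) carries an inhibitory motif (ITIM) in its own tail and recruits the phosphatase SHIP-1, and in DC the balance between both kinds of receptor is known to set the response to immune complexes. FcRn, made of the products of Fcgrt and B2m, binds IgG inside acidic endosomes and protects it from breakdown.

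Total counts on genes ranged from 15806597 to 32453789 per library, and replicate 3 was the shallowest in each subset. A floor of 3 counts corresponds to 0.0924 to 0.190 CPM (counts scaled to a fixed total per library), which covers counting error only. Between the conventional subsets, 6 of 6 cDC2 markers exceeded their level in cDC1 and 5 of 6 cDC1 markers were lower in cDC2. Of all genes tested, 12.7% were higher and 11.7% lower in cDC2 than in cDC1. All 6 pDC markers were higher in pDC than in both other subsets. Of all genes tested, 24.3% were higher and 24.4% lower in pDC than in cDC1. Against cDC2 these shares were 22.5% and 23.3%. Markers of the conventional subsets set pDC apart less fully. All 6 cDC1 markers were lower in pDC than in cDC1, but Cd8a and Clec9a were higher in pDC than in cDC2. Of the 6 cDC2 markers, 5 were lower in pDC than in cDC2, whereas Cd4 was higher, at 1368 against 399 CPM. The 6 cDC2 markers summed to 1862 to 2039 CPM in pDC and 1827 to 1986 in cDC2. Cd8a stood at 1433 ± 209 CPM (SD, n = 3) in cDC1, 21.1 ± 3.29 in cDC2 and 337 ± 55.7 in pDC. Libraries of replicate 3 stood apart in several of the genes below, so values without them are given where they change a call.

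The 8 transcripts were detected in every library, at levels that differed between subsets. All 8 genes had enough counts to be tested, and 8 of 8 differed among the subsets (adjusted p under 0.05), beside 56.0% of all 13819 genes tested. The 8 genes and the lists below were chosen with earlier results of these data known, so their counts are descriptions and test no excess. Here and below, levels are CPM scaled by edgeR's TMM factors, differences are log2 fold changes from edgeR's quasi-likelihood fit of the 9 libraries, and adjusted p-values follow Benjamini and Hochberg, taken over every gene in the fit. Between the conventional subsets, 7 of the 8 genes differed, beside 24.4% of genes tested. Of these, 4 were higher in cDC2 (Fcgr1, Fcgr4, Fcer1g and Fcer2a; background 12.7%) and 3 were lower (Fcgr2b, Fcgrt and Fcrla; background 11.7%). Between pDC and cDC1, 5 differed, near the background of 48.6%. Fcer1g, Fcer2a and Fcrla were higher in pDC (24.3% of genes tested were), and Fcgr2b and Fcgrt were lower (24.4%). Between pDC and cDC2 only 3 passed, beside 45.8% of genes tested, with Fcrla higher (22.5%) and Fcgr2b and Fcgr4 lower (23.3%) in pDC.

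Libraries with the same replicate number carry the same date code and deviated together, so a fit with the replicate number as a block was also made. With the block, the genes that differed between pDC and cDC2 rose from 3 to 6, beside 55.5% of genes tested. The block gave 5 genes for pDC against cDC1 (background 58.6%) and 8 for cDC2 against cDC1 (background 35.6%). Leaving out cDC1 replicate 3 moved the count for pDC against cDC2 to 5, and leaving out all 3 libraries of replicate 3 moved it to 6.

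**Figure D1:**
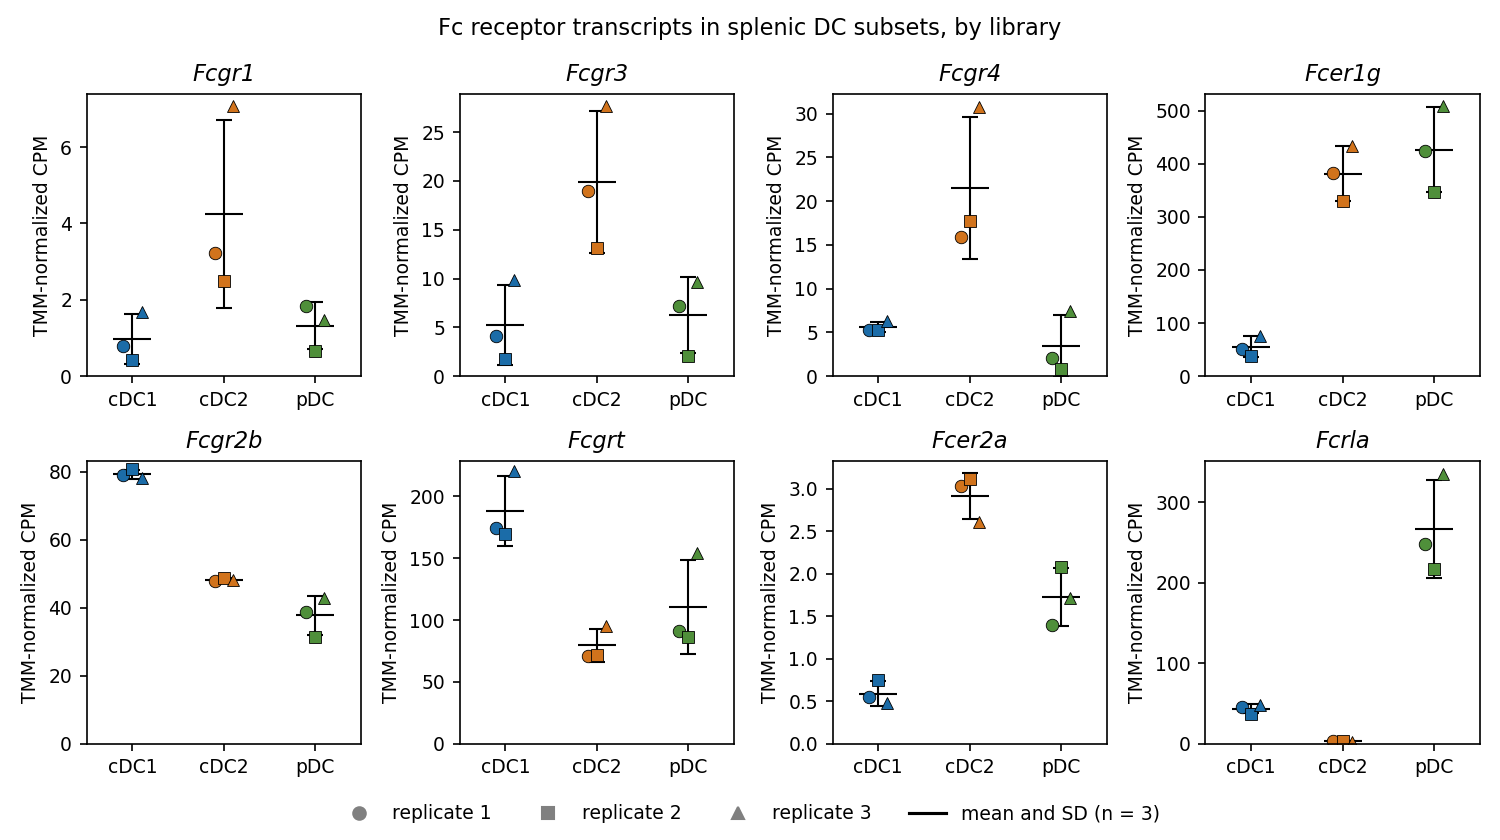
Levels of the 8 genes in each library, in TMM-normalized CPM on linear axes that start at 0. Symbols mark the replicate number, horizontal bars the mean and vertical bars the SD of 3 libraries. Fcgr1, Fcgr3 and Fcgr4 are highest in cDC2, Fcgr2b and Fcgrt in cDC1, and Fcrla in pDC, and Fcer1g is low in cDC1 alone.

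**Figure D2:**
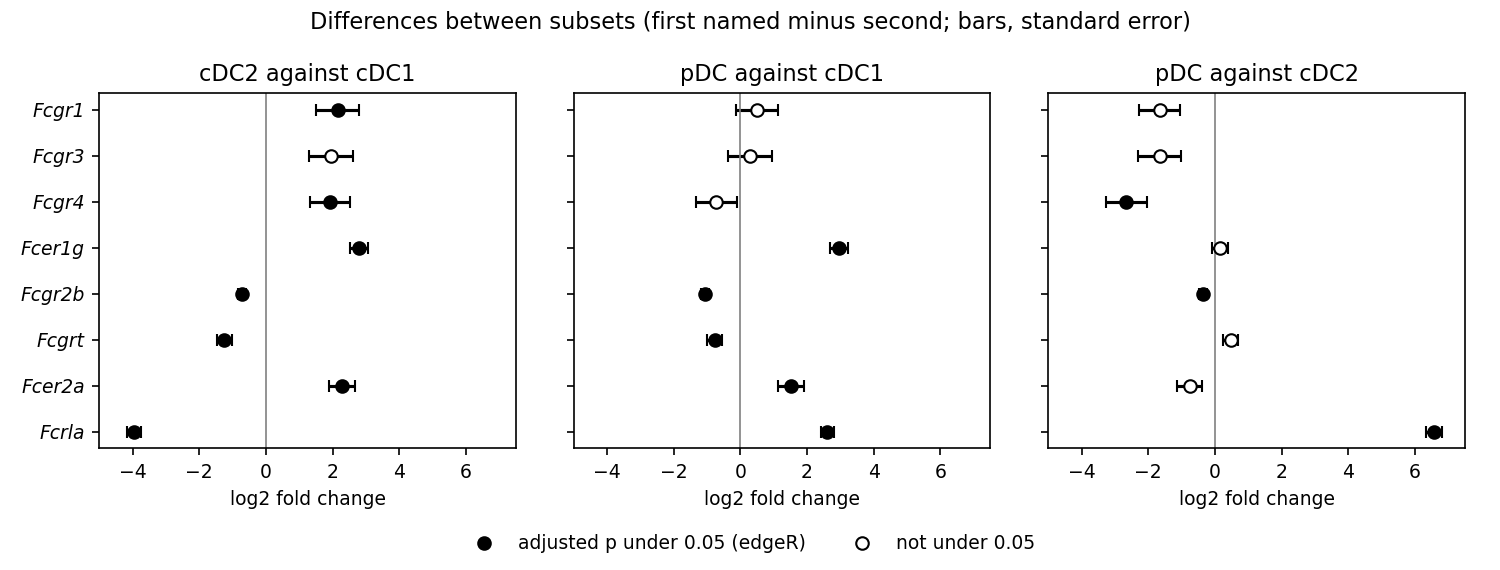
Log2 fold changes of the 8 genes in the 3 comparisons, with standard errors from the edgeR fit. Filled points have an adjusted p under 0.05. The largest difference is that of Fcrla between pDC and cDC2, at 6.57.

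Of the 8 genes, 5 lie close together on chromosome 1 of GRCm38, between 170917576 and 171234365, in the order Fcrla, Fcgr2b, Fcgr4, Fcgr3 and Fcer1g. Fcgr2b and Fcgr3 are near copies of each other over part of their length. Their coding sequences share an unbroken run of 129 bases, which crosses from exon 3 to exon 4 in both genes and encodes part of the immunoglobulin-like domains outside the cell. The run is shown because reads of 75 bases that fall wholly inside it cannot be given to either gene. In the stretches below it is flanked by 12 bases on each side, and capitals mark the 2 flanking positions at which the genes differ (minus strand, chr1:170966662-170968093 for Fcgr2b and chr1:171054155-171057804 for Fcgr3, introns left out).
Fcgr2b: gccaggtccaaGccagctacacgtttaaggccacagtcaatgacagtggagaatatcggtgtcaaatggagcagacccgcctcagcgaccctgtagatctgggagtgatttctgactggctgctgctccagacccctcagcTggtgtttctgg
Fcgr3: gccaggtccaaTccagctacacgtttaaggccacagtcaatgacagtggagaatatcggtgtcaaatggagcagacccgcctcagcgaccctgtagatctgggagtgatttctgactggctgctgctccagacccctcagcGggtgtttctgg
Of the 75-base windows of Fcgr3 transcripts, 5.42% also occur in Fcgr2b, and 5.43% of those of Fcgr2b occur in another gene. Fcgr1, Fcgr4, Fcer1g, Fcgrt and Fcrla shared none. The levels of Fcgr2b and Fcgr3 moved in opposite directions between cDC1 and cDC2, as given next.

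Among the activating receptors, Fcgr1, Fcgr3 and Fcgr4 were all at their highest in cDC2. Fcgr4 (ENSMUSG00000059089, plus strand, chr1:171018920-171029761) encodes FcγRIV, a receptor for IgG2a and IgG2b. It stood at 15.96, 17.8 and 30.8 CPM in cDC2 replicates 1, 2 and 3, at 5.28, 5.29 and 6.29 in cDC1, and at 2.06, 0.861 and 7.48 in pDC. Every cDC2 library was above every other library, whereas pDC and cDC1 overlapped. The difference between cDC2 and cDC1 was 1.93 on the log2 scale (SE 0.60, 3.82-fold, adjusted p = 0.0419), and it no longer passed when any 1 of the 6 libraries of these subsets was left out (adjusted p 0.0669 to 0.135). Between pDC and cDC2 the level of Fcgr4 fell by 2.66 (SE 0.62, adjusted p = 0.00606) and passed under every alternative run. Between pDC and cDC1 the log2 difference was -0.73 (adjusted p = 0.361), but -1.88 without pDC replicate 3 (adjusted p = 0.00477) and -1.81 without all libraries of replicate 3 (adjusted p = 0.0026).

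Fcgr3 (ENSMUSG00000059498, minus strand, chr1:171051174-171064935) encodes FcγRIII, a low-affinity receptor for IgG complexes. Its level was 19.0, 13.1 and 27.6 CPM in cDC2, 4.11, 1.79 and 9.81 in cDC1 and 7.20, 2.03 and 9.60 in pDC. The cDC2 libraries did not overlap with the others, but within each subset replicate 2 was lowest and replicate 3 highest, and this spread was shared. In the edgeR fit reported first, the log2 difference of 1.95 between cDC2 and cDC1 (SE 0.65) missed the threshold (adjusted p = 0.0564). That of -1.66 between pDC and cDC2 (SE 0.64) missed it as well (adjusted p = 0.0588). Also without the block, the first passed with DESeq2 (0.0109), limma-voom (0.0162), no count filter (0.0279) or the 6 libraries compared (0.0314). The second passed with the same settings (0.0198, 0.0204, 0.0335 and 0.0378). With library size scaling only the first passed (0.0419). Of 18 alternatives in all, 8 missed for the first and 9 for the second. Blocked by replicate number, the differences were 2.17 (SE 0.30, adjusted p = 0.000545) and -1.84 (SE 0.29, adjusted p = 0.000695). Both also passed without all libraries of replicate 3, at 2.39 (adjusted p = 0.0194) and -1.74 (adjusted p = 0.0333). The first passed without cDC1 replicate 3 (adjusted p = 0.0218), pDC replicate 2 (0.0296) or pDC replicate 3 (0.045), and the second without cDC1 replicate 2 (0.0377), cDC1 replicate 3 (0.0341) or pDC replicate 3 (0.0421). Fcgr3 in pDC was not told apart from cDC1, with a log2 difference of 0.29 (SE 0.65, adjusted p = 0.745). That difference changed sign when cDC1 replicate 2 (-0.13) or pDC replicate 3 (-0.11) was left out.

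Fcgr1 (ENSMUSG00000015947, minus strand, chr3:96282909-96293969), the high-affinity receptor for IgG, was the least abundant activating receptor. It was measured at 3.22, 2.48 and 7.07 CPM in cDC2, 0.801, 0.417 and 1.69 in cDC1 and 1.85, 0.659 and 1.47 in pDC, which rested on 10 to 133 counts per library. All cDC2 libraries again lay above the rest. Fcgr1 was higher in cDC2 than in cDC1 by 2.16 (SE 0.64, 4.39-fold, adjusted p = 0.0354), but not past the threshold without cDC1 replicate 1 (adjusted p = 0.122), cDC1 replicate 2 (0.118), cDC2 replicate 1 (0.0642) or cDC2 replicate 3 (0.126). Against cDC2, pDC had a difference of -1.66 (SE 0.62, adjusted p = 0.0534), which passed with the block at -1.61 (adjusted p = 0.0132) and without cDC1 replicate 2 (0.048) or cDC1 replicate 3 (0.0404). It also passed with DESeq2 (0.0217), library size scaling only (0.0486) or a filter of 10 counts in every library (0.0359). In 12 of the 18 alternatives it missed. The difference between pDC and cDC1 was 0.50 (SE 0.64, adjusted p = 0.56).

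Transcripts known from other cells that carry these receptors were also measured, and part of them varied with the receptors. In bulk samples, a change in the number of such cells and a change in RNA per cell cannot be told apart. The summed level of 10 macrophage markers was 505 to 722 CPM in cDC2, 167 to 252 in cDC1 and 61.3 to 234 in pDC, with no marker at 0 in any library. Between cDC2 and cDC1, 5 of the 10 were higher in cDC2 (Emr1, Spic, C1qa, C1qb and C1qc) and none was lower. The shares of all genes tested there were 12.7% and 11.7%. Emr1, which encodes F4/80, made up much of that sum in cDC2 at 344 ± 41.6 CPM, and Mertk stood at 4.52 ± 1.77 in cDC2, 1.74 ± 0.931 in cDC1 and 3.68 ± 3.22 in pDC. Within subsets, the macrophage sum and the receptors were only partly alike in order. In each subset the sum, Fcgr1 and Fcgr3 were all lowest in replicate 2, with sums of 167, 505 and 61.3 CPM in cDC1, cDC2 and pDC. Fcgr4 was lowest in replicate 2 in pDC alone. In cDC2 the sum was highest in replicate 1 (722 CPM), where Fcgr4 was at its lowest for that subset (15.96 CPM). In cDC1 the sum was highest in replicate 1 (252 CPM), whereas Fcgr1, Fcgr3 and Fcgr4 were highest in replicate 3.

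Markers of NK cells, which carry FcγRIII, summed to 20.7 to 84.8 CPM over 6 genes in cDC2, 8.50 to 27.95 in cDC1 and 10.3 to 46.7 in pDC. In replicate 3 the sum was 2.67, 3.04 and 3.29 times the mean of replicates 1 and 2 in cDC1, cDC2 and pDC. Of the 6 genes, Ncr1 alone passed, higher in cDC2 than in both other subsets. Monocyte markers (6 genes) summed to 371 to 604 CPM in cDC1, 1569 to 2214 in cDC2 and 2269 to 3428 in pDC. Lyz2, Ccr2 and Csf1r were higher in cDC2 than in cDC1, beside the same 12.7% of all genes tested. Most of the sum in pDC was Ly6c2, at 2225 ± 424 CPM against 22.5 ± 13.9 in cDC2. Lyz2 (1399 ± 287 CPM in cDC2 against 175 ± 126 in pDC) and Csf1r (371 ± 37.5 against 60.0 ± 35.5) were lower in pDC than in cDC2, by log2 differences of -2.997 (adjusted p = 0.00117) and -2.63 (adjusted p = 0.00109). Neutrophil markers stayed between 4.56 and 45.3 CPM in all libraries, and none of the 5 tested passed in any comparison. Of all genes tested, 24.4% passed in cDC2 against cDC1, 48.6% in pDC against cDC1 and 45.8% in pDC against cDC2. The part of these cells in the levels of Fcgr1, Fcgr3 and Fcgr4 was not tested.

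**Figure D3:**
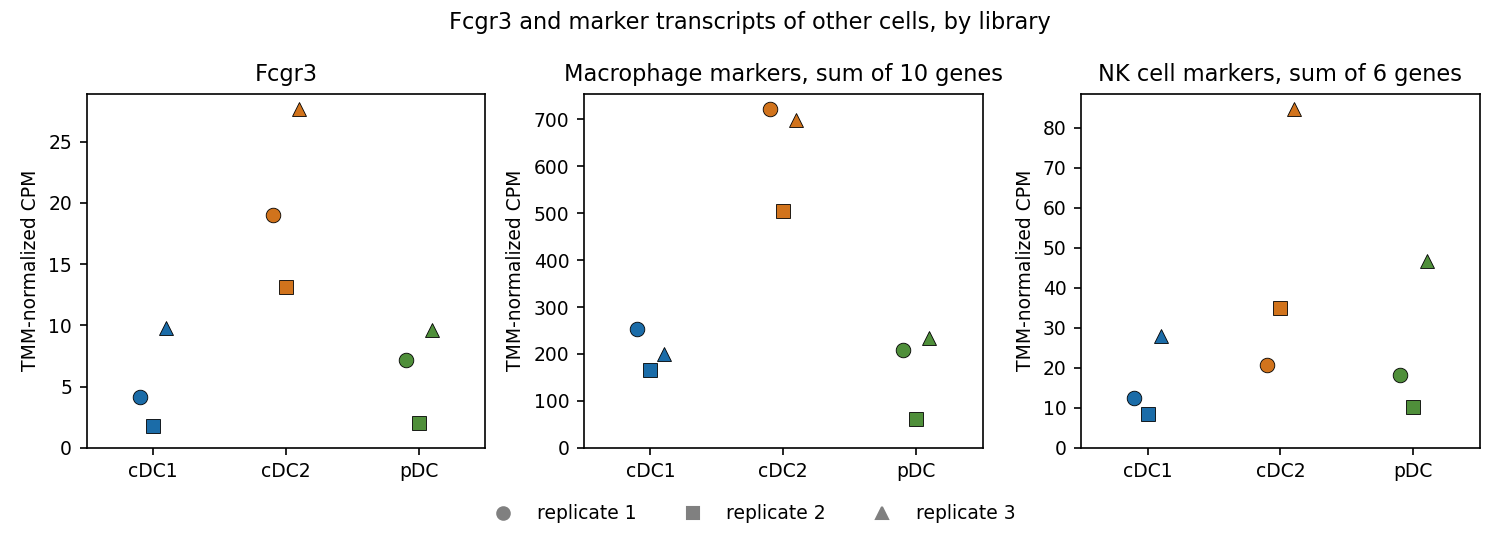
Fcgr3 and the summed levels of 10 macrophage and 6 NK cell markers in each library, in TMM-normalized CPM on axes that start at 0, with symbols for the replicate number. In each subset Fcgr3 and the NK cell sum are highest in replicate 3, and the macrophage sum is highest in cDC2.

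The 100 bases before the transcript start are shown for the 3 activating receptors and Fcrla because each holds the core of the binding motif of PU.1, a transcription factor of myeloid cells, in its promoter (RefSeq, GRCm38.p6). All 8 genes matched the RefSeq promoter table. Promoters of 250 bases before to 50 after the start were searched on both strands for GAGGAA and for the E-box CAGGTG, which do not overlap each other. Capitals mark the matches, with GAGGAA read here from the other strand as TTCCTC. The windows are chr3:96293970-96294069 (minus), chr1:171059404-171059503 (minus), chr1:171018826-171018925 (plus) and chr1:170927584-170927683 (minus).
Fcgr1: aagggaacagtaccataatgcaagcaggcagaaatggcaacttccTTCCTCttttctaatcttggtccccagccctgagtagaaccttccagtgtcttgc
Fcgr3: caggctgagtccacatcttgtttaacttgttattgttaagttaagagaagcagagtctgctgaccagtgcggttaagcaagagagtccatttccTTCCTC
Fcgr4: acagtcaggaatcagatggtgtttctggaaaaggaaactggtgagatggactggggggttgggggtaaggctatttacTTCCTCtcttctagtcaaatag
Fcrla: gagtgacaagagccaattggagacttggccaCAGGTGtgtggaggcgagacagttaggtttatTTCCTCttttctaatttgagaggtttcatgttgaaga
The 8 genes have 11 promoters in that table. GAGGAA was found in 5 of these 11 promoters, from 4 of the 8 genes, and in 28.3% of 32851 promoters. CAGGTG was found in 2 of the 11 promoters (Fcrla and Fcer2a) and in 20.2% of the 32851 promoters. The motif is held both by the receptors that were highest in cDC2 and by Fcrla, which was lowest there.

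Fcgr2b (ENSMUSG00000026656, minus strand, chr1:170958617-170976547), the inhibitory receptor, had the reverse order of the activating receptors among the conventional subsets. The bases that encode the core of its ITIM, residues 317 to 322 in exon 8 of the principal transcript, are shown as the part that sets it apart from Fcgr3, with the tyrosine codon in capitals (minus strand, chr1:170961071-170961088).
Fcgr2b ITIM: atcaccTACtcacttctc
The level was 78.9, 80.7 and 78.0 CPM in cDC1, 47.9, 48.7 and 48.0 in cDC2 and 38.8, 31.4 and 42.9 in pDC. The groups did not overlap in any pair of subsets, and the SD of 0.432 CPM in cDC2 was very small beside the mean of 48.2. Between cDC2 and cDC1 Fcgr2b fell by 0.72 (SE 0.12, adjusted p = 0.00197) and between pDC and cDC1 by 1.07 (SE 0.12, adjusted p = 6.11e-05), and both passed under every alternative run. The lower level in pDC than in cDC2 was small (-0.35, SE 0.12, adjusted p = 0.0379). It was lost when cDC1 replicate 1 or 2, any 1 of the 3 cDC2 libraries, or pDC replicate 1 or 2 was left out (adjusted p 0.0586 to 0.115, log2 difference -0.24 without pDC replicate 2), with no filter on low counts (0.0711) and in a fit of the 6 libraries compared (0.0762). Of its annotated exon bases, 2.68% lie opposite another annotated gene. Whether counting used the strand is not given in the sources used here.

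Fcer1g (ENSMUSG00000058715, minus strand, chr1:171229572-171234365) encodes the common gamma chain, which also pairs with other receptors than those for IgG. The 45 bases that encode its ITAM, residues 65 to 79 in exons 4 and 5, are shown because this motif carries the signal of all 3 activating receptors, with the codons of both tyrosines in capitals (minus strand, chr1:171229889-171230072, intron left out).
Fcer1g ITAM: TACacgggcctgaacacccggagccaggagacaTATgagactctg
Its level was 383, 329 and 433 CPM in cDC2, 424, 347 and 509 in pDC, and 51.8, 37.1 and 76.3 in cDC1. All cDC1 libraries were far below the other 6, and cDC2 and pDC overlapped. Fcer1g was 6.93-fold higher in cDC2 than in cDC1 (log2 2.79, SE 0.26, adjusted p = 5e-05) and 7.75-fold higher in pDC than in cDC1 (log2 2.96, SE 0.26, adjusted p = 9.92e-06), and both held under every alternative run. Between pDC and cDC2 the difference was 0.16 (SE 0.24, adjusted p = 0.626), also with the block (0.15, SE 0.11, adjusted p = 0.26).

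Levels of different genes can be compared only per length of transcript, so CPM per kilobase of annotated exon (RPKM) were used for ratios within each library, as a description with no test. The sum of Fcgr1, Fcgr3 and Fcgr4 over Fcgr2b was 0.505, 0.388 and 0.840 in cDC1 replicates 1, 2 and 3, 3.01, 2.69 and 5.20 in cDC2, and 0.969, 0.389 and 1.63 in pDC. On this length, the ratio was above 1 in all cDC2 libraries, in none of cDC1 and, in pDC, in replicate 3 alone. The value depends on the exon length taken for Fcgr2b: with the shortest principal transcript, chosen after seeing the data, the means were 0.175 ± 0.0778 in cDC1, against 1.10 ± 0.411 in cDC2 and 0.312 ± 0.189 in pDC. The order of the means was the same, but the 3 cDC2 libraries were then at 0.925, 0.805 and 1.57, so that 2 of them were below 1.

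Per kilobase, transcripts of the gamma chain exceeded the summed transcripts of these receptors in every library, and protein was not measured. Fcer1g over the activating sum in RPKM was 7.71 to 8.62 in cDC1, 11.5 to 17.6 in cDC2 and 48.3 to 189 in pDC. The highest ratio, in pDC replicate 2, divides by a sum that rests on 13, 40 and 17 counts of Fcgr1, Fcgr3 and Fcgr4. The activating sum behind these ratios was 6.50, 2.11 and 12.05 RPKM in pDC replicates 1, 2 and 3 and 6.88, 5.41 and 11.3 in cDC1. The pDC libraries lay on both sides of those of cDC1, and the highest was replicate 3.

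**Figure D4:**
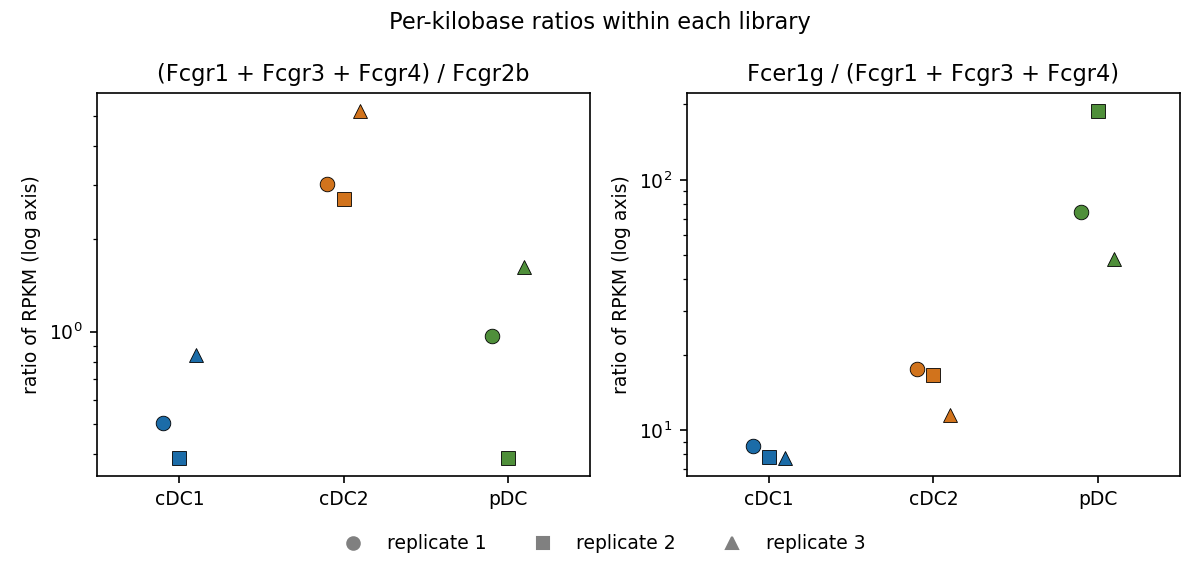
Ratios of RPKM within each library, on log axes, with symbols for the replicate number. The left panel divides the sum of the 3 activating receptors by Fcgr2b and shows cDC2 above the other subsets, from 2.69 to 5.20. The right panel divides Fcer1g by that sum and shows pDC highest, from 48.3 to 189.

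Fcgrt (ENSMUSG00000003420, minus strand, chr7:45092990-45103851) encodes the heavy chain of FcRn and was the most abundant of the 8 per kilobase in cDC1, at 89.6 ± 13.5 RPKM. In CPM it stood at 174, 170 and 221 in cDC1, 71.2, 72.1 and 95.1 in cDC2 and 91.4, 86.2 and 155 in pDC. Every cDC1 library was above every other library, while cDC2 and pDC overlapped. Fcgrt fell by 1.24 from cDC1 to cDC2 (SE 0.23, adjusted p = 0.0033), under every alternative run. In pDC it was lower than in cDC1 by a log2 difference of -0.77 (SE 0.23, adjusted p = 0.0193), which was lost without cDC1 replicate 3 (adjusted p = 0.0527), pDC replicate 1 (0.0703) or pDC replicate 2 (0.0557). The difference between pDC and cDC2 was 0.48 (SE 0.23, adjusted p = 0.118), with pDC higher in 3 of 3 same-numbered pairs. It passed with the block (0.44, SE 0.099, adjusted p = 0.00455) and without all libraries of replicate 3 (0.31, adjusted p = 0.0101). B2m, the partner chain of FcRn and of MHC class I, was not ordered like Fcgrt. It stood at 3536 ± 859 CPM in cDC1, against 4742 ± 1050 in cDC2 and 5324 ± 1129 in pDC. B2m was higher in pDC than in cDC1 (0.59, SE 0.22, adjusted p = 0.047, but 0.0754 with upper quartile scaling). With the block it was also higher in cDC2 than in cDC1 (0.43, adjusted p = 6.7e-05) and in pDC than in cDC2 (0.17, adjusted p = 0.00778).

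Fcer2a (ENSMUSG00000005540, minus strand, chr8:3681737-3694175) encodes CD23, the low-affinity receptor for IgE, a C-type lectin best known from B cells. It was scarce, with 7 to 18 counts per library in cDC1, 49 to 95 in cDC2 and 29 to 46 in pDC. These gave 0.546, 0.750 and 0.474 CPM in cDC1, 3.03, 3.11 and 2.60 in cDC2 and 1.39, 2.08 and 1.71 in pDC. No libraries of different subsets overlapped. Fcer2a was 4.94-fold higher in cDC2 than in cDC1 (log2 2.28, SE 0.39, adjusted p = 0.00214) and 2.92-fold higher in pDC than in cDC1 (log2 1.52, SE 0.39, adjusted p = 0.00911), under every alternative in which it was tested. Between pDC and cDC2 the difference of -0.76 (SE 0.37) did not pass (adjusted p = 0.12). It passed without all libraries of replicate 3 (-0.85, adjusted p = 0.0386) and with limma-voom (-0.83, adjusted p = 0.0444), and missed in 15 of 17 alternatives.

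Other transcripts known from B cells varied between the subsets as well. Of 8 B cell markers, 4 had enough counts to be tested. Cr2 and Blk were higher (12.7% of all genes tested were) and Ms4a1 lower (11.7%) in cDC2 than in cDC1. In pDC, Cd79a, Cr2 and Blk were higher (24.3% of all genes tested were) and Ms4a1 was lower (24.4%) than in cDC1. The sum of the 8 was 45.8 to 51.6 CPM in cDC1, 51.8 to 61.7 in cDC2 and 8.01 to 15.3 in pDC. In cDC2 the sum came mainly from Ms4a1 (29.2 ± 2.75 CPM), Blk (19.0 ± 2.87) and Cr2 (7.09 ± 1.10), while Pax5 had 0 to 8 counts per library over all subsets. The highest sum, in cDC2 replicate 3, was that of a library in which 5 of the 8 markers were at 0. The part of B cells in the level of Fcer2a was not tested.

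Fcrla (ENSMUSG00000038421, minus strand, chr1:170917576-170927583) had the widest range of the 8 genes. It encodes a Fc receptor-like protein that stays inside the cell and is best known from B cells. Its level was 248, 217 and 335 CPM in pDC, 45.8, 37.1 and 47.9 in cDC1 and 3.15, 2.87 and 2.28 in cDC2. The 3 subsets were fully separate, in an order shared by no other gene of the 8. Fcrla was 96.3-fold higher in pDC than in cDC2 (log2 6.57, SE 0.23, adjusted p = 7.28e-08), 6.12-fold higher in pDC than in cDC1 (log2 2.61, SE 0.19, adjusted p = 2.64e-06) and 15.7-fold higher in cDC1 than in cDC2 (log2 -3.96 for cDC2 against cDC1, SE 0.21, adjusted p = 2.27e-06). All 3 differences passed under every alternative run. Per kilobase, Fcrla was second to Fcer1g in pDC (153 ± 35.0 against 488 ± 92.3 RPKM). Markers of plasma cells, a B-lineage type, summed to 267 to 508 CPM in pDC, 14.3 to 18.3 in cDC1 and 20.7 to 29.7 in cDC2 over 4 genes. Igj, Sdc1 and Derl3 were higher in pDC than in cDC2, beside 22.5% of all genes tested. Igj, at 338 ± 120 CPM, made up most of the sum in pDC. Igj and Sdc1 were also higher in pDC than in cDC1, beside 24.3% of all genes tested. Derl3 was at 4.51 ± 1.65 CPM in pDC and 5.18 ± 3.02 in cDC1 (log2 difference -0.20, adjusted p = 0.752). Tnfrsf17, the other gene of that list, had too few counts to be tested. The part of such cells in the level of Fcrla was not tested.

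Replicate 3 had the highest level of the 3 replicates in every subset for 4 of the 8 genes (Fcgr3, Fcgr4, Fcer1g and Fcgrt), beside 17.3% of all genes tested. Fcgr3 in replicate 3 was 3.32, 1.72 and 2.08 times the mean of replicates 1 and 2 in cDC1, cDC2 and pDC, and Fcgr4 was 1.19, 1.82 and 5.13 times. Fcgr2b was at 0.979, 0.995 and 1.22 times in cDC1, cDC2 and pDC. Fcer2a was not highest in replicate 3 in any subset.

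Genes related to these receptors by signalling, pairing or Fc binding were described from lists of 54 genes, of which 45 were tested. In cDC2 against cDC1, 21 were higher and 5 lower, where 12.7% and 11.7% of all genes tested were, and their median log2 difference was 0.58 beside 0.0269 for all genes tested. In pDC against cDC1, 22 were higher and 11 lower, beside 24.3% and 24.4% of all genes tested (median 0.42, beside 0.0178). In pDC against cDC2, 14 were higher and 15 lower, beside 22.5% and 23.3% (median -0.13, beside -0.00882). Genes of activating signalling (23 genes, all tested) moved in both directions in each comparison, to be read beside the same shares of all genes: 11 were higher and 3 lower in cDC2 than in cDC1, with 10 higher and 6 lower in pDC than in cDC1, and 8 higher and 8 lower in pDC than in cDC2.

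Syk, the kinase that binds the phosphorylated ITAM, followed the order of the gamma chain. It stood at 130 ± 26.7 CPM in cDC1, against 322 ± 25.5 in cDC2 and 492 ± 64.6 in pDC, with 3 of 3 differences past the threshold (cDC2 against cDC1 1.31, adjusted p = 0.0003, and pDC against cDC2 0.61, adjusted p = 0.0113). The Src family kinases that phosphorylate these motifs differed in kind between subsets. Fgr was at 121 ± 21.4 CPM in cDC1, against 618 ± 50.5 in cDC2 and 702 ± 7.06 in pDC. Fyn was at 98.1 ± 0.944, 91.6 ± 6.86 and 960 ± 142 CPM, higher in pDC than in cDC2 by 3.39 (SE 0.13, adjusted p = 8.85e-08). Src was lower in cDC2 than in cDC1 by -2.41 (SE 0.66, adjusted p = 0.0248), at 2.18 ± 1.83 against 11.9 ± 5.10 CPM.

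The adaptors that link SYK to phospholipase C also differed in kind. Blnk, best known from B cells, stood at 288 ± 23.7 CPM in pDC against 3.88 ± 0.752 in cDC1 and 2.96 ± 0.536 in cDC2, which is 6.61 higher on the log2 scale than in cDC2 (SE 0.20, adjusted p = 5.08e-08). Lcp2, which encodes SLP-76, stood at 51.0 ± 8.17 in pDC, 170 ± 10.2 in cDC1 and 372 ± 14.9 in cDC2, lower in pDC than in cDC2 by -2.87 (SE 0.13, adjusted p = 1.87e-07). Lat, best known from T cells, was low, at 6.23 ± 1.69 CPM in pDC, 0.495 ± 0.451 in cDC1 and 1.54 ± 1.03 in cDC2, and was higher in pDC than in cDC1 (3.75, SE 0.71, adjusted p = 0.0017). With the block Lat was also higher in cDC2 than in cDC1 (1.72, adjusted p = 0.0209). The exchange factor Vav3 fell from 63.6 ± 7.27 CPM in cDC1 to 41.8 ± 3.12 in cDC2 and 16.1 ± 1.10 in pDC, and Malt1, a protease of the CARD9 pathway, was highest in cDC2 at 172 ± 22.7 CPM (66.5 ± 8.86 in cDC1, 111 ± 15.3 in pDC).

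Of 8 genes of inhibitory signalling, 4 were higher and 1 lower in cDC2 than in cDC1, beside 12.7% and 11.7% of all genes tested. In pDC against cDC1, 4 were higher and 3 lower, beside 24.3% and 24.4%. In pDC against cDC2, 2 were higher and 1 lower, beside 22.5% and 23.3%. The last count, 3 of 8, is below the share of all genes that differed there, 45.8%. Inpp5d encodes SHIP-1, the phosphatase recruited by FcγRIIB, and like Fcgr2b it was highest in cDC1, at 667 ± 92.2 CPM against 406 ± 21.2 in cDC2 and 372 ± 51.4 in pDC. It was lower than in cDC1 by -0.72 in cDC2 (SE 0.13, adjusted p = 0.00336) and by -0.84 in pDC (SE 0.13, adjusted p = 0.00055). The related phosphatase gene Inppl1 (SHIP-2) had the other order, with 107 ± 5.61 CPM in pDC, 32.4 ± 3.08 in cDC2 and 23.8 ± 2.37 in cDC1. Ptpn6, which encodes SHP-1, rose from 260 ± 33.2 CPM in cDC1 to 744 ± 69.7 in cDC2 and 968 ± 96.9 in pDC. Its difference between pDC and cDC2 was small (0.38, SE 0.13, adjusted p = 0.0317) and missed the threshold with library size scaling (adjusted p = 0.0531). The kinase Csk, which restrains Src family kinases, was higher in cDC2 than in cDC1 by 0.52 (SE 0.076, adjusted p = 0.00078), and the docking protein gene Dok1 was lower in pDC than in cDC2 by -1.34 (SE 0.19, adjusted p = 0.000296).

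Among the other ITAM adaptors and the partners of the gamma chain, 8 of 11 genes were tested. Tyrobp, which encodes the ITAM adaptor DAP12, was the most abundant of them, at 2281 ± 167 CPM in pDC, 782 ± 59.1 in cDC2 and 375 ± 42.1 in cDC1, and differed in all 3 comparisons (pDC against cDC2 1.55, SE 0.11, adjusted p = 2.74e-06). Clec4n encodes Dectin-2, a lectin that signals through the gamma chain. Its level was 23.3 ± 6.01 CPM in cDC2, against 3.98 ± 1.76 in cDC1 and 4.86 ± 3.00 in pDC, higher in cDC2 than in cDC1 by 2.56 (SE 0.55, adjusted p = 0.00703). Nfam1, an ITAM-bearing receptor, was highest in cDC2 as well, at 393 ± 34.3 CPM. Il3ra, a chain of the IL-3 receptor, was highest in pDC, at 36.8 ± 4.57 CPM against 15.3 ± 0.847 in cDC1 and 16.8 ± 1.69 in cDC2. In all, 4 of these genes rose and none fell from cDC1 to cDC2, beside 12.7% and 11.7% of all genes tested. In pDC against cDC1, 5 were higher and none lower, beside 24.3% and 24.4%. In pDC against cDC2, 3 were higher and 4 lower, beside 22.5% and 23.3%.

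Of 11 other Fc and Fc receptor-like genes, 5 were tested. Fcrl1, an Fc receptor-like gene best known from B cells, stood at 77.7 ± 2.56 CPM in cDC2, against 32.5 ± 2.56 in cDC1 and 1.50 ± 0.554 in pDC, the reverse of the order of Fcrla. It was lower in pDC than in cDC2 by -5.67 (SE 0.24, adjusted p = 1.5e-07) and higher in cDC2 than in cDC1 by 1.26 (SE 0.19, adjusted p = 0.00091). Fcrlb, a relative of Fcrla, was largely a cDC1 transcript, at 13.5 ± 1.59 CPM against 1.66 ± 0.805 in cDC2 and 0.162 ± 0.167 in pDC, where 1 library had no count. Fcrlb was lower than in cDC1 by -3.05 in cDC2 (SE 0.51, adjusted p = 0.00189) and by -6.13 in pDC (SE 0.64, adjusted p = 3.17e-05). Faim3, which encodes the Fc receptor for IgM, was low and highest in pDC (3.43 ± 0.69 CPM), and Fcrl5 was near 2.00 ± 0.456 in cDC2 and at or under the floor of 3 counts in every cDC1 library. Trim21, a cytosolic Fc receptor, stood at 25.6 ± 3.50, 25.5 ± 3.49 and 23.9 ± 4.23 CPM in cDC1, cDC2 and pDC and did not pass in any comparison. Fcer1a and Ms4a2, the other chains of the high-affinity IgE receptor, had at most 19 and 5 counts in a library and were not tested.

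**Figure D5:**
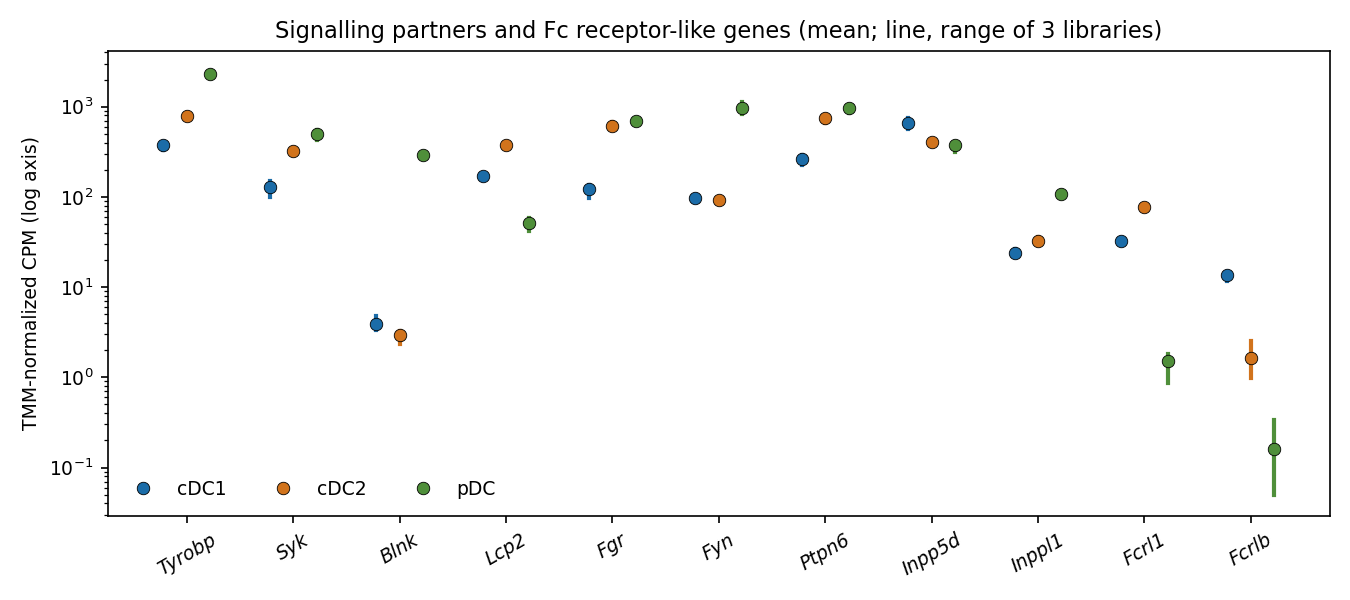
Mean levels of 9 signalling genes and of Fcrl1 and Fcrlb in the 3 subsets, in TMM-normalized CPM on a log axis, with lines for the range of 3 libraries. Ranges are drawn from 0.05 CPM up, below which the pDC library with no Fcrlb count lies. Blnk and Fyn stand out in pDC, Lcp2 is lowest in pDC, and Fcrl1 and Fcrlb are low in pDC.

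The genes whose levels were most like those of the 8 were taken from 8842 genes by Pearson correlation over the 9 libraries. The libraries fall into 3 subsets and those of the same number share a date code, so these values describe likeness and carry no test. For Fcgr2b the closest were Serpinb8 (r = 0.995), Itpripl2 (0.993) and Hk3 (0.992), all highest in cDC1 and lowest in pDC. For Fcer1g they were Rbm38 (0.998), Ctss (0.994), which encodes cathepsin S, and Cd7 (0.993). For Fcrla they were Adipor2 (0.998), Prr5 (0.996) and Tmem214 (0.995), and for Fcgrt they were Mpst (0.983), Nampt (0.983) and Eif1a (0.981). Fcgr1 and Fcer2a were too low to be compared in this way. Fcgr3 was closest to the complement gene C1qb (0.962), a macrophage marker at 48.0 ± 16.2 CPM in cDC2, against 8.60 ± 4.08 in cDC1 and 16.1 ± 11.2 in pDC, and Fcgr4 to Ppp3r1 (0.988). Among the 8 genes themselves, taken with no limit on level, Fcgr3 was closest to Fcgr1 (0.946), and Fcgrt and Fcer2a were the most opposed (-0.906). Both pairs hold a gene that was too low for the wider comparison, with as few as 10 counts in a library for Fcgr1 and 7 for Fcer2a.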

How the data were processed

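RNA of 9 libraries of sorted splenic DC was read from 1 end over 75 bases (stranded mRNA kit). The authors deposited raw read counts per gene, without normalization. The submitters' processing notes name STAR, SAMtools, MultiQC and featureCounts and the build mm10, with no role or version. The annotation and the strand setting are not given in the sources used here. Subsets and replicate numbers came from the labels. Within a replicate number the 3 subsets share a date code, and all 9 same-numbered pairs deviated together (correlations of 0.266 to 0.543), so the numbers pair the libraries. The study's methods name no block, so the fit reported first has none. That fit ignores the pairing, and p-values given with no mention of the block or another setting come from it. Replicates differed by more than sampling noise (chi-square per degree of freedom 10.6 to 67.7) and each was counted. The series' design text calls them biological replicates, each from a pool of mice, so p-values rest on the spread between pools. Without the block, that spread includes what libraries of the same date code share.

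Tests used edgeR 4.0.16 under R 4.3.3: filterByExpr (minimum count 10) kept 13819 of 39179 genes, TMM factors were used, subset was the only term, and quasi-likelihood p-values were adjusted over all genes tested, with a threshold of 0.05. RPKM used the exons of GENCODE M21 on GRCm38 (2589 bases for Fcgr1 and 5790 for Fcgr2b, for example). The script was tested on simulated data. Alternatives were the replicate block, DESeq2 1.42.0, limma-voom (limma 3.58.1), other scalings and filters, fits of 6 libraries, stricter thresholds and each library left out. Leaving out replicate 3 as a whole and other transcript lengths were added after seeing the data.

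The members and lists were chosen with earlier results of these data known. Beside the 8 members, the text names Syk, Tyrobp, B2m, Inpp5d and Ptpn6. From each list and comparison it names up to 2 genes with the largest rise and up to 2 with the largest fall. These had to pass the threshold, with a mean of at least 5 CPM where higher and no overlap between the libraries of the 2 subsets. Genes named as the members of a small count, and Faim3, Fcrl5, Trim21, Fcer1a and Ms4a2, fall outside that rule and were chosen after their values were seen. Values of some listed genes are not reported here. Likeness used genes with a mean of at least 10 CPM and log2 of CPM plus 1. Correlations among the 8 genes themselves had no such limit. Python 3.11.15 and matplotlib 3.10.9 drew the figures.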

Additional observations from a re-analysis of the deposited data

How the results depend on the processing

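Of 24 differences of the 8 genes, 23 kept their direction and 13 stayed on the same side of the threshold in every alternative run. The count of Fc receptor genes for pDC against cDC2 (3) moved to 6 with the replicate block, to 5 with DESeq2, to 5 with limma-voom and to 6 without all libraries of replicate 3, and ranged from 2 to 5 with single libraries left out. The block changed the calls of Fcgr1 and Fcgrt for pDC against cDC2 and of Fcgr3 in both comparisons with cDC2, as given above, and no other call of the 8 genes. The counts of the signalling and Fc-like genes moved with a log2 change of at least 1 asked for, to 19 for pDC against cDC2 and to 15 for cDC2 against cDC1. Log2 differences that changed sign were small: Fcgr3 for pDC against cDC1 (-0.13 to 1.04 over the alternatives), Src for pDC against cDC1 (0.00029 with the block and 0.051 with library size only), Plcg2 for pDC against cDC1 (0.046 with library size only), Fyn and Trim21 for cDC2 against cDC1 (0.011 and 0.10 with library size only) and Pik3r1 for cDC2 against cDC1 (-0.022 with upper quartile scaling). The cause of these changes was not tested. Fcgr1 and Fcer2a rest on as few as 10 and 7 counts in a library, which limits their precision.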
